A study of Scyliorhinus canicula with 3 samples.

Results

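The homeobox genes onecut2, onecut3a and prox1a were followed in single nuclei of the small-spotted catshark retina. They were taken by symbol from the annotation, 3 of its 29017 genes, and all 3 passed the filter on low counts. The series holds 3 single-nucleus RNA libraries, 1 retina from each of 3 female juvenile catsharks (Scyliorhinus canicula) of 11.0, 10.5 and 11.1 cm total length, with no treatment and no other condition. Each library is thus 1 animal, and the comparisons set classes of nuclei of the same animals against each other. After quality control and clustering 17524 nuclei remained, of which 318 formed 1 horizontal cell-like (HC-like) cluster, with 88, 59 and 171 nuclei in libraries 1, 2 and 3.

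Horizontal cells are interneurons of the outer retina that take input from photoreceptors and feed back onto them and onto bipolar cells. Onecut proteins carry a cut domain and a homeodomain, and in mouse Onecut1 and Onecut2 act in the formation of horizontal cells and are also found in ganglion cells. Prox1 is a Prospero-type homeodomain protein that mouse horizontal cells need in order to form and that also marks some amacrine and bipolar cells there. The letter at the end of onecut3a and prox1a follows zebrafish naming and does not mean that the shark has another copy.

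In build sScyCan1.1, onecut2 lies on chromosome 3 from 56352855 to 56374068, a span of 21214 bases with 3 annotated transcripts. The gene onecut3a lies on chromosome 18 from 107833521 to 107977844, a span of 144324 bases with 3 transcripts. The gene prox1a lies on chromosome 1 from 252057084 to 252189383, a span of 132300 bases with 8 transcripts. Counts were taken over whole genes, so introns are included and levels are not compared between the genes here.

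The libraries held 50691314 to 73310348 unique molecular identifiers (UMIs, each a captured RNA molecule), and 4425 to 10154 barcodes lay within the study's quality limits. Pairs of libraries shared 1 to 16 barcodes. Classes were named from marker lists that did not hold the 3 genes, and the 3 genes were left out of the counts used for clustering. The HC-like name rested on 6 of 12 listed genes that matched the annotation, among them opn4a, a melanopsin, gja10b, a connexin of gap junctions, and the genes called atp6v0a1-l and slc9a5 by the study. The study picked several of them on these samples, so they are not independent evidence of the name. Their summed level was 3514 to 7490 CPM (counts per 1000000 UMIs of the class) in HC-like nuclei, against 61.1 to 237 CPM in the other 10 classes.

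The gene onecut3a was the member most concentrated in horizontal cells. Its level in HC-like nuclei was 1770, 517 and 517 CPM in libraries 1, 2 and 3, or 935 ± 724 CPM (SD, n = 3). Library 1 stood apart from the other 2. In each library HC-like nuclei were first among the 11 classes of retinal cells. Pigment epithelium-like nuclei and 1 unnamed cluster entered only the sums of all other nuclei. HC-like nuclei made up 1.80%, 1.43% and 2.01% of the nuclei but held 75.9%, 65.1% and 59.7% of all onecut3a UMIs. Their depth was typically 2.80 times the median of the clustered nuclei of their library, so their share of nuclei understates their share of all UMIs.

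Retinal progenitor-like (RPC-like) nuclei came next on average, with 106, 4.34 and 37.4 CPM of onecut3a, and retinal ganglion cell-like (RGC-like) nuclei after them, with 56.0, 32.4 and 32.2 CPM. The RPC-like levels spread so widely that the class had rank 2 in libraries 1 and 3 and rank 9 in library 2. Bipolar cell-like (BC-like), Müller glia-like (MG-like), rod-like, photoreceptor precursor-like (PR precursor-like) and the 3 amacrine cell-like (AC-like) classes averaged 5.61 to 11.5 CPM. All of these averages lay below the level in near-empty droplets, which was lowest in library 2 with 14.9 CPM and had 17.3 CPM in library 3. Of the single values behind them, only that of cholinergic AC-like nuclei in library 3, at 21.1 CPM, lay above the droplets of its library. Such droplets, the shallower part of all barcodes with a median of 305 to 481 UMIs, were taken to hold mainly free RNA. Rod-like nuclei, which should lack the gene, averaged 6.92 CPM, and the averages of these classes are not told apart from background. The 48 oligodendrocyte-like (OL-like) nuclei held 0 onecut3a UMIs of 207040, which allows up to 14.5 CPM (3 counts over the group), so the mean of HC-like nuclei was at least 64.5-fold higher, or at least 19.7-fold without library 1.

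**Figure D1:**
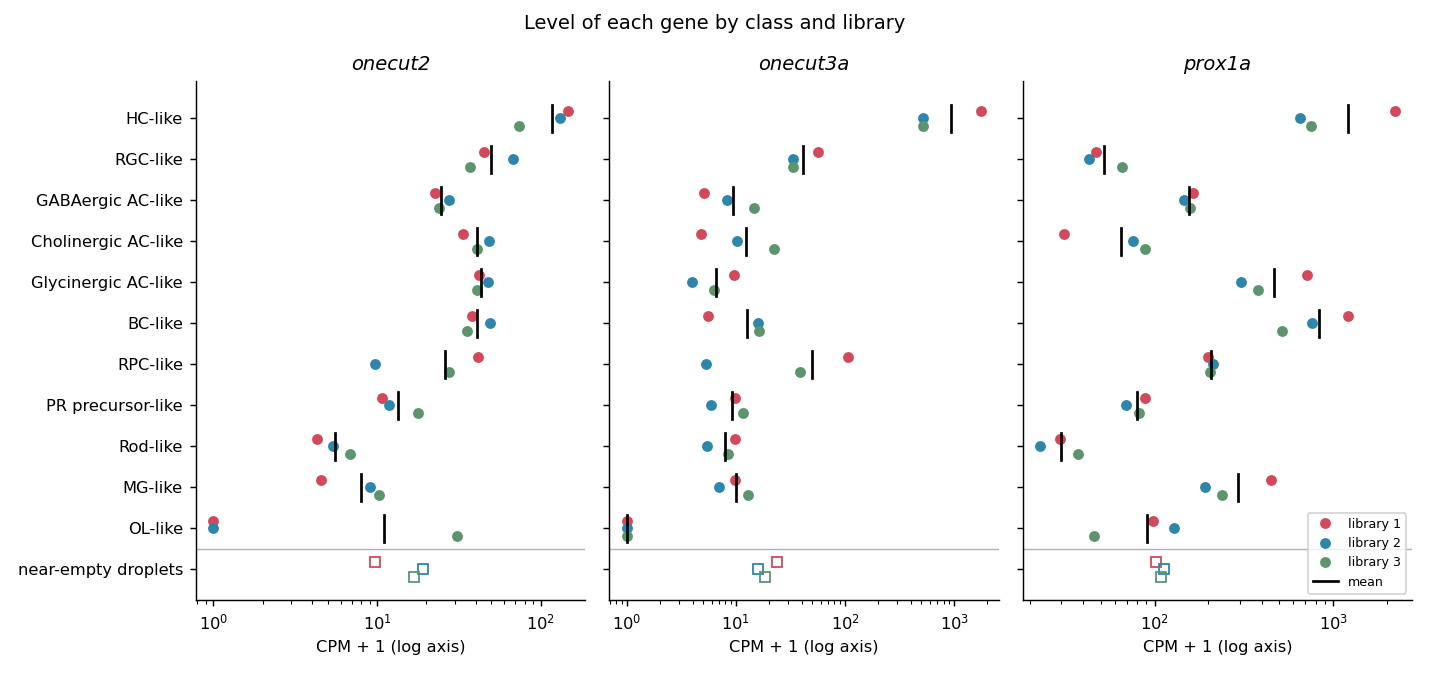
Level of onecut2, onecut3a and prox1a in CPM plus 1 (log axis) in each class of nuclei, with 1 circle per library, a line at the mean of the 3 libraries, and squares for near-empty droplets. HC-like nuclei stand highest for onecut2 and onecut3a in every library, and for prox1a they share the top with BC-like nuclei.

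The level of prox1a in HC-like nuclei was 2212, 649 and 752 CPM, or 1204 ± 874 CPM (SD, n = 3). Library 1 was again the high one. BC-like nuclei had 1214, 759 and 517 CPM, or 830 ± 354 CPM, and were above the HC-like nuclei in library 2. Glycinergic AC-like nuclei followed with 717, 305 and 379 CPM, and MG-like nuclei, the retina's radial glia, with 449, 191 and 236 CPM. The RPC-like nuclei had 198, 213 and 204 CPM, but in library 1 only 4 of the 158 nuclei held 64 of the 182 prox1a UMIs of the class. GABAergic AC-like nuclei were even across libraries as a class, at 155 ± 9.89 CPM (SD, n = 3), though their clusters differed.

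Cholinergic AC-like, RGC-like, PR precursor-like, OL-like and rod-like nuclei averaged 29.0 to 89.6 CPM of prox1a, against 101 to 112 CPM in near-empty droplets. Of their single values only that of OL-like nuclei in library 2, at 127 CPM from 6 UMIs, lay above the droplets of its library. Rod-like nuclei, which should lack the gene, had 28.5, 22.0 and 36.5 CPM in libraries 1, 2 and 3. PR precursor-like nuclei were above them in each library, with 87.5, 68.4 and 81.1 CPM. The CPM of droplets gives the make-up of free RNA, not its amount in a nucleus. These averages are thus read neither as expression nor as its absence. BC-like nuclei, which pass on photoreceptor signals, held 33.4%, 46.0% and 35.7% of all prox1a UMIs, more than the 20.1%, 9.76% and 14.3% in HC-like nuclei. They were also the larger class, with 5.02%, 6.77% and 9.78% of the nuclei against 1.80%, 1.43% and 2.01%.

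The level of onecut2 in HC-like nuclei was 145, 130 and 73.2 CPM, or 116 ± 37.8 CPM (SD, n = 3). HC-like nuclei were first in every library, and their lowest value lay above the highest value of any other class, 66.5 CPM. Single clusters within the other classes came closer. In library 3 glycinergic AC-like cluster 15 had 70.3 CPM and BC-like cluster 18 had 70.2 CPM. In libraries 1 and 2 these clusters had 80.5 to 96.6 CPM, above the HC-like value of library 3. RGC-like nuclei had 43.9, 66.5 and 36.1 CPM. Glycinergic AC-like, cholinergic AC-like and BC-like nuclei averaged 42.4, 40.0 and 39.8 CPM, close to the 48.8 CPM of RGC-like nuclei. GABAergic AC-like nuclei had 23.7 ± 2.50 CPM and RPC-like nuclei 25.2 ± 15.9 CPM (SD, n = 3 each).

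PR precursor-like nuclei averaged 12.5 CPM of onecut2, MG-like nuclei 6.96 CPM and rod-like nuclei 4.51 CPM, against 8.78 to 18.1 CPM in near-empty droplets. OL-like nuclei held 2 onecut2 UMIs, both in library 3. HC-like nuclei held 16.2%, 14.2% and 11.6% of the onecut2 UMIs, so most molecules of this gene lay in other classes, unlike those of onecut3a.

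HC-like sums were tested against each other class in edgeR's quasi-likelihood fit over all class sums with library as a block, with p-values adjusted over 15646 genes. The spread of each gene was estimated over the sums of all classes together, not only over the pair compared. Where HC-like nuclei spread more than other classes, these p-values can be too small. Both onecut genes against OL-like nuclei were left out, since that class held too few UMIs for a fold. Of the other 28 comparisons 27 were higher in HC-like nuclei and none was lower. For onecut3a the 9 log2 fold changes were 4.30 to 7.28, for onecut2 the 9 were 1.22 to 4.52, and for prox1a the 10 were 0.37 to 5.17.

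All 3 genes were higher in HC-like nuclei than in RGC-like nuclei, where 9.41% of all genes were called higher in HC-like nuclei. The log2 fold change there was 4.45 (SE 0.50, adjusted p = 6.36e-07 by edgeR) for onecut3a and 4.39 (SE 0.43, adjusted p = 2.26e-08 by edgeR) for prox1a. It was smaller for onecut2, at 1.22 (SE 0.28, adjusted p = 0.00146 by edgeR). All 3 were also higher than in GABAergic, cholinergic and glycinergic AC-like nuclei, where 5.27%, 5.06% and 4.92% of all genes were called higher. The same held against RPC-like, PR precursor-like, rod-like and MG-like nuclei, with 10.8%, 12.7%, 18% and 7.28% of all genes called, and for prox1a against OL-like nuclei, with 6.37%.

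Bipolar nuclei were the exception. Against BC-like nuclei, where 5.36% of all genes were called higher in HC-like nuclei, onecut3a and onecut2 passed the test, with log2 fold changes of 6.05 (SE 0.56) and 1.43 (SE 0.28), but prox1a did not, with 0.37 (SE 0.37, adjusted p = 0.681 by edgeR). This p does not show that the levels are alike. For prox1a against glycinergic AC-like nuclei the log2 fold change was 1.32 (SE 0.37, adjusted p = 0.0210 by edgeR), and 5 of the 13 alternatives put this p above 0.05, including those without library 2 and without library 3, at 0.182 and 0.0586.

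**Figure D2:**
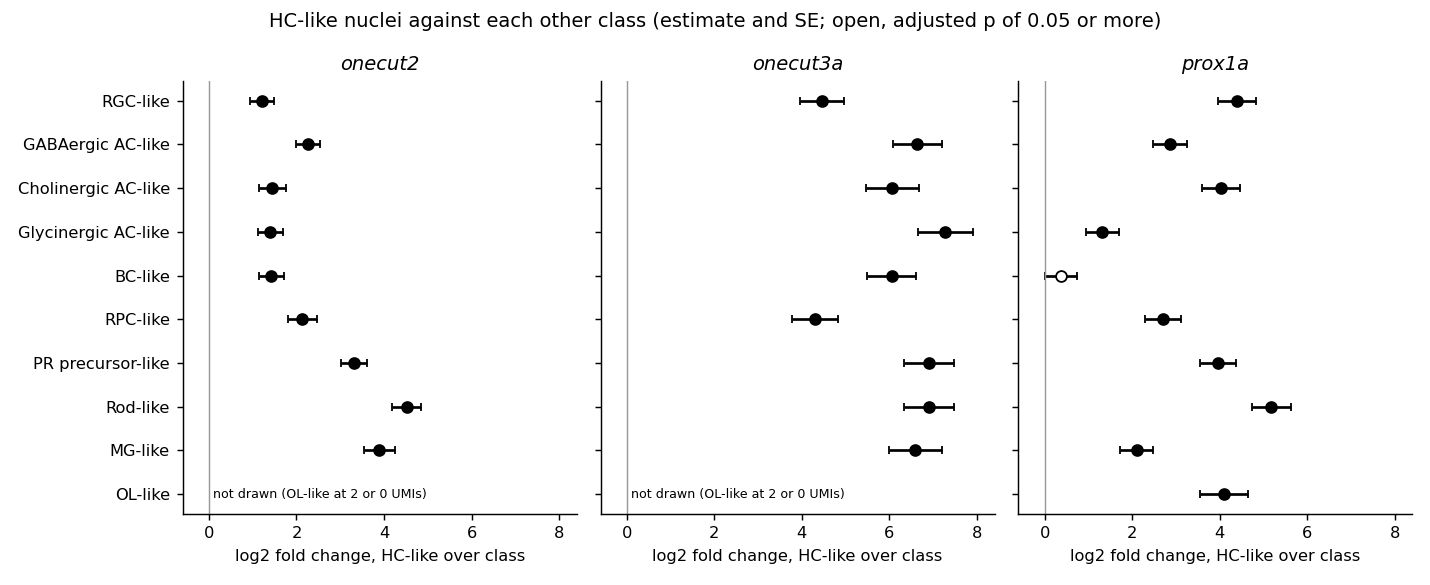
Log2 fold change of HC-like nuclei over each other class for the 3 genes. Bars are 1 SE worked out from the F statistic of the edgeR fit over the sums of all classes in 3 libraries, which share the estimate of spread. Filled points have an adjusted p under 0.05, and the 1 open point is prox1a against BC-like nuclei, at 0.37.

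Most neighbours in the order of mean levels were not shown to differ beyond their spread. For onecut2, HC-like over RGC-like and GABAergic AC-like over PR precursor-like nuclei passed, with log2 fold changes of 1.22 (SE 0.28) and 1.06 (SE 0.30) where 22.1% and 33.1% of all genes were called in either direction. The other 6 neighbouring pairs tested did not. RGC-like, glycinergic AC-like, cholinergic AC-like and BC-like nuclei followed each other with log2 fold changes of 0.19, 0.05 and -0.02, in pairs where 13%, 5.58% and 13% of all genes were called. BC-like over RPC-like nuclei had 0.70 (SE 0.33, adjusted p = 0.128 by edgeR) where 25.8% were called, RPC-like over GABAergic AC-like nuclei 0.13 where 28.2% were called, and MG-like over rod-like nuclei 0.62 where 35.2% were called.

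For onecut3a, HC-like over RPC-like nuclei passed with 4.30 (SE 0.53) where 20.7% of all genes were called, and RGC-like over BC-like nuclei with 1.60 (SE 0.54, adjusted p = 0.0339 by edgeR) where 24.2% were called. The pair between them, RPC-like over RGC-like nuclei, had 0.15 (SE 0.54) where 30.8% were called. The 6 pairs from BC-like down to glycinergic AC-like nuclei, whose averages were all below near-empty droplets, had log2 fold changes of at most 0.52, where 13% (BC-like and cholinergic AC-like), 17.9%, 22.7%, 33.1%, 23.3% and 36% (rod-like and glycinergic AC-like) of all genes were called.

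For prox1a 0 of 10 neighbouring pairs passed in edgeR, although 3 of them had an unadjusted p under 0.05. These were BC-like over glycinergic AC-like nuclei with 0.95 (SE 0.37), glycinergic AC-like over MG-like nuclei with 0.78 (SE 0.37) and GABAergic AC-like over OL-like nuclei with 1.24 (SE 0.59), where 11.1%, 18.3% and 9.38% of all genes were called. Of the other pairs, HC-like over BC-like nuclei had 11.1% of all genes called, MG-like over RPC-like 11.7% and RPC-like over GABAergic AC-like 28.2%. Among the classes with averages below near-empty droplets the pairs from OL-like down to rod-like nuclei had 14.1%, 25.7%, 9.96% and 41.1% called.

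Each class was also tested against all other nuclei of its library, with an adjusted p under 0.05 and a log2 fold change of at least 1 in size. In HC-like nuclei, where 2.66% of all genes were called higher, onecut3a had a log2 fold change of 5.93 (SE 0.43), prox1a 2.29 (SE 0.32) and onecut2 2.25 (SE 0.26). The onecut2 call was lost without library 2, with an adjusted p of 0.0545 by edgeR and a log2 fold change of 2.22. In RGC-like nuclei onecut2 was higher, with 1.01 (SE 0.17) where 6.55% of all genes were called, just past the limit of 1. It was 0.79 to 0.998 there under 7 of the alternatives. In BC-like, glycinergic AC-like and cholinergic AC-like nuclei onecut2 had 0.82, 0.80 and 0.69 (adjusted p = 0.0129, 0.00334 and 0.0181 by edgeR). These values fell short only of the limit of 1. Prox1a was lower in RGC-like nuclei, with -2.27 (SE 0.17) where 5.89% were called.

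In BC-like nuclei prox1a was higher, with a log2 fold change of 2.39 (SE 0.23) where 4.08% of all genes were called, and in glycinergic AC-like nuclei it was higher with 1.04 (SE 0.17) where 2.85% were called. Without library 1 the glycinergic value was 0.76, below the limit. All 3 genes were lower in rod-like and PR precursor-like nuclei, where 17.2% and 9.58% of all genes were called lower. In MG-like nuclei, where 4.44% were called lower, both onecut genes were lower and prox1a had 0.18 (SE 0.23). In glycinergic AC-like nuclei onecut3a was lower, with -2.90 (SE 0.20) where 3.05% were called lower. It was also lower in GABAergic AC-like nuclei, with -2.39 (SE 0.51) where 4.26% were called lower. That call was lost without library 2 (adjusted p = 0.119 by edgeR). The other nuclei include the HC-like ones, which held 59.7% to 75.9% of the onecut3a UMIs. A class at background thus comes out lower, so the lower calls of onecut3a in all these classes are not read as a depletion of their own. In OL-like nuclei prox1a was lower, with -1.73 (SE 0.43) where 3.97% were called lower, a call lost without library 1 or 3 (adjusted p = 0.0759 and 0.126 by edgeR). None of the 3 passed in RPC-like nuclei, where 5.53% of all genes were called higher and 7.21% lower, or in cholinergic AC-like nuclei, where 3.24% were called higher and 4.02% lower. In cholinergic AC-like nuclei onecut3a had -1.60 and prox1a -1.88, and 6 and 9 of the alternatives called them lower.

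Within the bipolar class the levels of prox1a and onecut2 differed between clusters. Cluster 12, led by neto1l, had 276, 293 and 213 CPM of prox1a in libraries 1 to 3. Cluster 18, led by npr3, had 1795, 802 and 697 CPM, and cluster 19, led by prkd3, had 2000, 1150 and 728 CPM. Cluster 12 was thus the lowest of the 3 in each library. Cluster 19 averaged 1293 CPM of prox1a, against 1204 CPM in HC-like nuclei. For onecut2 it was cluster 18 that stood out, with 86.7, 96.6 and 70.2 CPM, against 13.5 to 32.1 CPM in clusters 12 and 19.

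Glycinergic AC-like nuclei were split as well. Cluster 15 had 88.9, 80.5 and 70.3 CPM of onecut2, against 7.25 to 41.9 CPM in clusters 16 and 20. Its prox1a level was 367, 204 and 364 CPM. Among GABAergic AC-like nuclei, cluster 1 had 208, 173 and 188 CPM of prox1a, against 65.6, 77.4 and 60.9 CPM in cluster 10, which was led by penkb, a proenkephalin. The values of cluster 10 lay below the near-empty droplets of their libraries, at 101, 112 and 107 CPM. These cluster values are descriptions without a test.

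**Figure D3:**
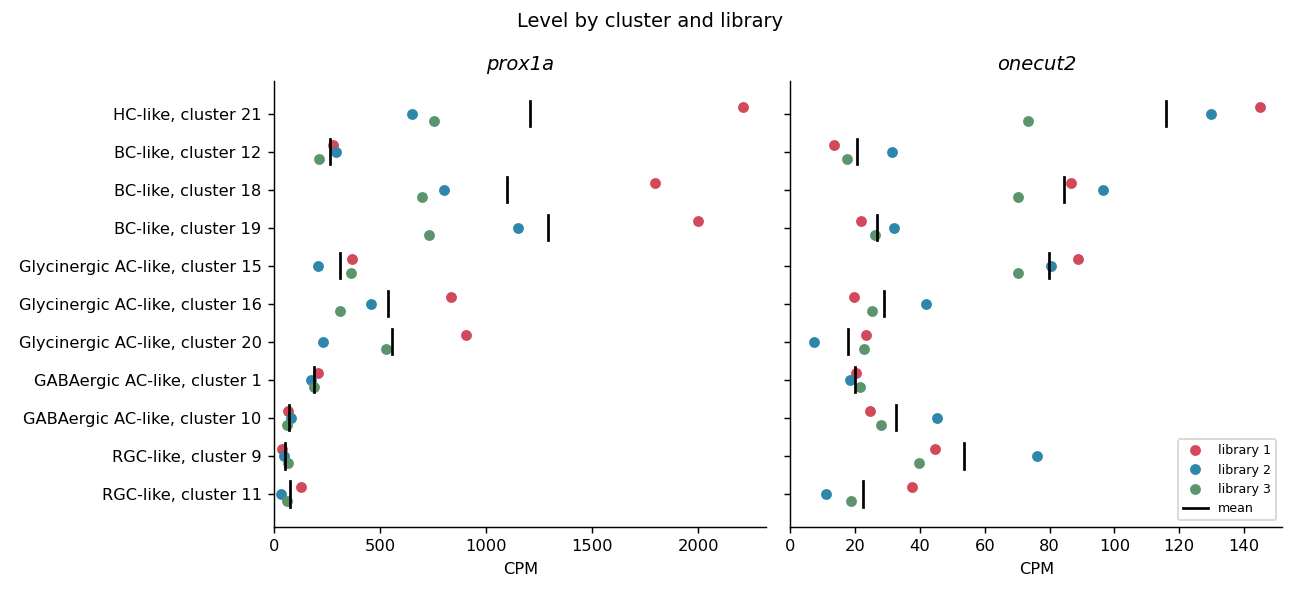
Level of prox1a and of onecut2 in CPM in each cluster of the HC-like, BC-like, glycinergic AC-like, GABAergic AC-like and RGC-like classes, with 1 point per library and a line at the mean. In the bipolar class cluster 12 is low for prox1a, at 213 to 293 CPM, and cluster 18 is high for onecut2, at 70.2 to 96.6 CPM.

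In single HC-like nuclei onecut3a and prox1a were each seen in most nuclei. At least 1 UMI of onecut3a was present in 97.7%, 93.2% and 91.2% of HC-like nuclei in libraries 1, 2 and 3, and at least 1 of prox1a in 100%, 94.9% and 93.0%. In rod-like nuclei, which should lack these genes, these shares were 1.08% to 2.25% and 4.73% to 7.28%. The median depth was 5366.5 to 6572 UMIs in HC-like nuclei and 1515 to 3023 UMIs in rod-like nuclei, so each nucleus was also thinned to 1000 UMIs. The thinned shares were 79.5%, 54.2% and 45.6% for onecut3a and 81.8%, 45.8% and 58.5% for prox1a in HC-like nuclei, against at most 0.809% and 3.77% in rod-like nuclei. The exact 95% binomial (Clopper-Pearson) intervals of the thinned onecut3a shares were 69.6% to 87.4%, 40.8% to 67.3% and 38% to 53.4% in HC-like nuclei, and they cover counting error only.

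The gene onecut2 was seen in 60.2%, 57.6% and 36.8% of HC-like nuclei. All 3 genes were detected in 53 of 88, 33 of 59 and 62 of 171 HC-like nuclei, and onecut3a with prox1a but not onecut2 in 33, 21 and 87. Only 0, 2 and 5 nuclei had none. There was no HC-like nucleus with onecut2 alone. With onecut3a and prox1a each seen in 91.2% or more of the nuclei, such overlap would arise whatever the relation of the genes. Missing UMIs at this depth do not show that a nucleus lacks the gene.

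RGC-like nuclei with onecut3a are set beside HC-like ones here without a test, because nuclei are not replicates. Of the HC-like nuclei with at least 3 onecut3a UMIs, 226 of 228 also had prox1a. Of such RGC-like nuclei 13 of 34 had it, or 3 of 13, 2 of 7 and 8 of 14 in libraries 1, 2 and 3. Over all nuclei of each class prox1a was seen in 93.0% to 100% of HC-like and 11.9% to 21.3% of RGC-like nuclei. The classes thus differ in prox1a without this choice of nuclei. The median depth of the RGC-like nuclei with at least 3 onecut3a UMIs was 8360.5 to 13367 UMIs, higher than the 5559 to 8337.5 UMIs of the HC-like ones. In library 1, 10 RGC-like nuclei with at least 5 onecut3a UMIs held 82 of the 102 onecut3a UMIs of their class and only 2 prox1a UMIs. The HC marker genes summed to 273 CPM in these 10 nuclei, against 7490 CPM in the HC-like nuclei of that library. In libraries 2 and 3 there were 3 and 2 such RGC-like nuclei, of which 1 and 2 had prox1a. Their HC marker genes summed to 928 and 1133 CPM, but each sum came mainly from 1 nucleus. That nucleus held 23 of the 25 HC marker UMIs in library 2 and 19 of the 20 in library 3. The part of doublets in these nuclei was not tested. The deeper RGC-like cluster, cluster 9, had 59.3, 38.1 and 35.6 CPM of onecut3a, and the shallow cluster 11 had 26.9, 0 and 15.2 CPM.

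The onecut3a level of RPC-like nuclei in library 1 rested on few nuclei. There 4 of 158 RPC-like nuclei held 92 of the 97 onecut3a UMIs of the class, with 45, 24, 17 and 6 UMIs each. Without them the level was 5.69 CPM. The same 4 nuclei had 37, 8, 14 and 5 UMIs of prox1a, 4, 5, 1 and 0 UMIs of onecut2, and 6, 4, 5 and 5 UMIs of top2a, a topoisomerase of dividing cells. The HC marker genes had 0, 1, 2 and 5 UMIs in them, and their depth was 6011 to 13186 UMIs. In library 3 the highest RPC-like nucleus had 6 onecut3a UMIs, and in library 2 it had 1. The 24 onecut3a UMIs of the class in library 3 lay in 12 of 195 nuclei. Without the highest nucleus the level there was 28.6 CPM, against 17.3 CPM in the near-empty droplets of that library. When the 3 genes were kept in the clustering the mean level of the class was 19.5 CPM in place of 49.2 CPM, and onecut3a was called lower in RPC-like nuclei than in all others, with a log2 fold change of -1.25 and an adjusted p of 0.00777 by edgeR.

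**Figure D4:**
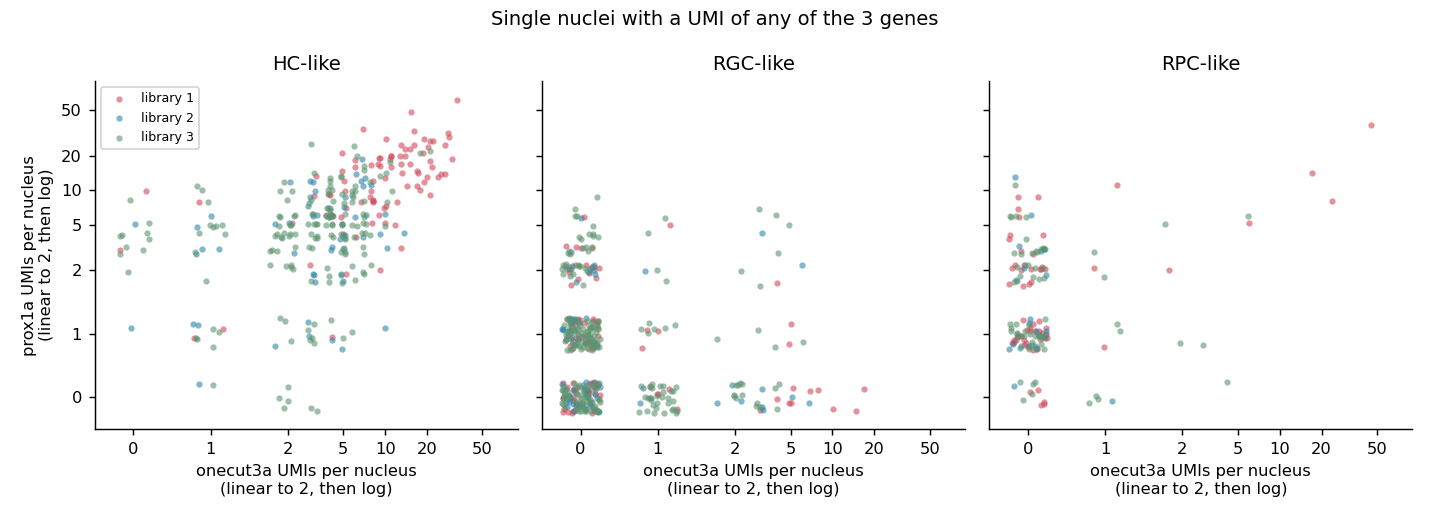
UMIs of onecut3a (x axis) and prox1a (y axis) in single HC-like, RGC-like and RPC-like nuclei with at least 1 UMI of any of the 3 genes, coloured by library, slightly jittered, on axes linear to 2 and logarithmic above. Of nuclei with at least 3 onecut3a UMIs, 226 of 228 HC-like and 13 of 34 RGC-like nuclei hold prox1a. Over all nuclei of each class prox1a is seen in 93.0% to 100% of HC-like and 11.9% to 21.3% of RGC-like nuclei. In the RPC-like class 4 nuclei of library 1 reach 6 to 45 onecut3a UMIs.

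Library 1 stood apart in its HC-like nuclei. There onecut3a was 3.42 times and prox1a 3.16 times the mean of libraries 2 and 3, and onecut2 1.43 times. Of 2275 genes with at least 100 CPM in HC-like nuclei, 9 were further above that mean than onecut3a and 12 further than prox1a. The HC marker genes were shifted unevenly, since opn4a was 2.98 times, atp6v0a1-l 1.69 times and gja10b 1.1 times the mean of the other 2 libraries. For prox1a the ratio was 1.90 in BC-like, 2.10 in glycinergic AC-like and 2.10 in MG-like nuclei, but 1.09 in GABAergic AC-like nuclei. The part of animal, depth and library in this was not tested. Without library 1 the HC-like means were 517 CPM for onecut3a, 700 CPM for prox1a and 101 CPM for onecut2.

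The genes most like each member were sought by Pearson correlation of log2(CPM + 10) over the 33 class sums, which share 3 libraries and their depth, among 5931 genes with a symbol. Most like onecut3a were ltk, a receptor tyrosine kinase (r = 0.95), opn4a (0.92), slc4a5a, a bicarbonate cotransporter (0.91), gja10b (0.89) and ca6, a carbonic anhydrase (0.89), all highest in HC-like nuclei. Both opn4a and gja10b were on the list that named the class. Most like onecut2 were nrg1, a neuregulin (0.87), dclk1a, a doublecortin-like kinase (0.83), pde10a, a phosphodiesterase (0.83), ttll7 (0.80) and dpysl5b (0.80). Most like prox1a were pde1a, a phosphodiesterase (0.85), prkcea, a protein kinase C (0.80), dock4 (0.77), kcng3, a potassium channel subunit (0.76) and dok6 (0.76), of which prkcea, dock4 and kcng3 were highest in BC-like nuclei. Between the members r was 0.69 for onecut2 with onecut3a and 0.47 to 0.48 for prox1a with either.

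Among the relatives of the 3 genes, onecut1 was higher in HC-like nuclei than in all others, with a log2 fold change of 2.55 (SE 0.48, adjusted p = 0.0222 by edgeR). Onecut1, the family member best known from mouse horizontal cells, was low, with 48.3, 6.38 and 4.82 CPM in HC-like nuclei. It was thus high in library 1 only. The homeobox gene cux2b had 277 CPM in HC-like nuclei and did not pass against all other nuclei.

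Of 23 listed factors of horizontal cells and early retinal neurons, 12 were tested, and against all other nuclei 1, onecut1 again, was higher in HC-like nuclei, where 2.66% of all genes were called higher. In edgeR 0 were lower, where 0.696% of all genes were, although 3 had an unadjusted p under 0.05 and a lower level, and DESeq2 likewise called 0 lower. Their median log2 fold change was -0.59, against -0.09 over all genes. Foxn4 and Ptf1a act upstream of horizontal cell formation in mouse. Here foxn4 had 1.82 CPM in HC-like and 54.5 CPM in RPC-like nuclei, with a log2 fold change of -4.85 between them that passed the test. The HC-like level rests on few UMIs, so the size of this fold is uncertain. The gene ptf1a had 0 UMIs in HC-like nuclei, which allows up to 1.31 CPM over the group, and 8.76 CPM in RPC-like nuclei. The gene called isl1 by the study averaged 52.4 CPM in HC-like nuclei, against 124 CPM in BC-like nuclei, where the HC-like level was lower in the test.

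Of 25 listed ganglion cell factors 7 were tested, and all 7 were lower in HC-like than in RGC-like nuclei, with a median log2 fold change of -3.85 against 0.01 over all genes, of which 12.6% were called lower. The genes pou4f1, pou4f2 and pou4f3 had helped to name the RGC-like class, so for them this is a description. Among the rest, ebf1a had -3.85 (SE 0.35) and irx2a -6.05 (SE 0.76). The irx2a level in HC-like nuclei was 1.73, 0 and 0 CPM in libraries 1, 2 and 3, so the size of its fold is uncertain. The gene ebf1a was not particular to RGC-like nuclei, with an average of 774 CPM there and 686 CPM in glycinergic AC-like nuclei. Of 12 listed photoreceptor factors 5 were tested in HC-like nuclei against all others, and edgeR called 0 of them, where 2.66% of all genes were called higher and 0.696% lower. Their median log2 fold change was -1.20, 2 had an unadjusted p under 0.05 and a lower level, and DESeq2 called 1 lower. The lists were chosen with earlier results of these data known.

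Barcodes above the study's upper limits on UMIs and features, which enter no comparison here, also held these genes. At least 5 onecut3a UMIs were found in 11, 33 and 32 barcodes above the limits in libraries 1, 2 and 3, against 93, 33 and 68 barcodes within the limits. In library 2 the limits thus set aside as many barcodes of this kind as they kept. Barcodes above the limits were deeper, so they reach 5 UMIs more easily. Their median was 23936, 31261 and 27174 UMIs in libraries 1, 2 and 3, against 3400, 2194 and 2032 UMIs within the limits. They were also fewer, at 263, 177 and 201 against 6053, 4425 and 10154 barcodes.

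**Figure D5:**
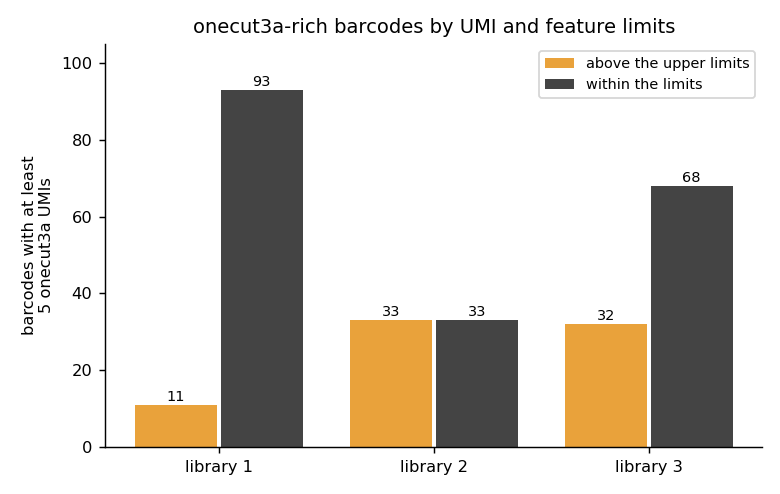
Number of barcodes with at least 5 onecut3a UMIs above the upper limits on UMIs and features and within the limits, by library. The counts are 11 and 93 in library 1, 33 and 33 in library 2, and 32 and 68 in library 3. Median depth is 23936 to 31261 UMIs above the limits and 2032 to 3400 UMIs within them.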

How the data were processed

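Nuclei of 3 catshark retinas were sequenced in 1 library each. The authors aligned reads with STARsolo (STAR 2.7.10a, per the submitters' processing notes) to build sScyCan1.1 and deposited raw UMI counts for 29017 features and all barcodes, without normalization. Barcodes with at least 200 features and features in at least 3 barcodes were kept. The study's limits were then applied: under 10% mitochondrial UMIs over 37 features, and UMI counts of 1000 to 20000 in library 1, 500 to 24000 in library 2 and 750 to 20000 in library 3, with limits on features.

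Doublets were called with a Python version of DoubletFinder's scoring at a rate of 4%, and 207, 149 and 352 nuclei were removed. It called 22.3%, 8.47% and 14.5% of planted doublets, so many doublets may remain. Libraries were normalized with sctransform 0.4.2, integrated and clustered in Seurat 5.3.0 (2000 features, 30 components, resolution 0.5). A cluster was dropped where 80% or more of it came from 1 library and its markers gave no retinal name, which took out 724 nuclei in the first pass and 1676 in the next. Clusters were named from marker lists. Near-empty droplets were barcodes with no more UMIs than the median of all kept barcodes. The 3 genes were left out of clustering and naming.

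UMI counts were added up over the nuclei of each class in each library, and the sums were tested with edgeR 4.0.16 with library as a block, since sums of 1 library come from 1 animal. The SE of a log2 fold change was worked out from edgeR's F statistic, as the size of the change over the square root of F. The other genes in these fits did enter the clustering. Tests were also run on simulated counts with a fixed spread and no library effect. That run cannot show how the tests hold for genes that differ between libraries as these do. Shares of nuclei and limits from a count of 0 cover counting error only. Genes most like a member were the 5 with the highest correlation among genes with a symbol and at least 20 CPM in 1 class in every library. The members and lists were chosen with earlier results of these data known. One gene on the list of relatives is not reported here. The 13 alternatives were other resolutions (0.3 and 0.8), no doublet removal, log normalization, members kept in the clustering, nuclei with at least 2000 UMIs, each library left out, DESeq2 1.42.0, its size factors, no filter on low counts and no block.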

Additional observations from a re-analysis of the deposited data

Results flagged for a closer look

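In the barcodes above the upper limits on UMIs and features, which no comparison used, the onecut3a level was 23.4, 56.6 and 51.3 CPM in libraries 1, 2 and 3, against 8.84, 4.40 and 7.54 CPM in the rod-like nuclei of the same libraries, which served as the level where the gene should be lacking. In barcodes within the limits it was 52.2, 26.8 and 35.3 CPM, so those above the limits were lower than these in library 1 and higher in libraries 2 and 3. Among the barcodes above the limits 3, 49 and 55 had at least 5 UMIs of the HC marker atp6v0a1-l, with median depths of 19803, 39488 and 31150 UMIs. Their onecut3a level was 581, 151 and 140 CPM, against 1686, 436 and 435 CPM in barcodes within the limits that had at least 5 such UMIs. Their prox1a level was 1674, 400 and 370 CPM, against 2142, 622 and 687 CPM within the limits. The chosen barcodes within the limits had median depths of 6170, 8734.5 and 7934 UMIs. A deeper barcode reaches 5 UMIs at a lower CPM of the marker. The cut thus does not choose barcodes of like marker level, and these differences in level cannot be read as a difference between nuclei. Whether such barcodes hold 1 nucleus or several was not tested.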

How the results depend on the processing

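Of the 28 comparisons of HC-like nuclei with a class, all kept their direction under all 13 alternatives, and only prox1a against glycinergic AC-like nuclei changed its call, with a log2 fold change of 1.23 (adjusted p = 0.0594 by edgeR) after log normalization, 1.25 (0.0550) with no filter on low counts, 1.38 (0.0804) with no replicate block, and 1.01 to 1.46 with each library left out. The fit without the block changed no other call of HC-like nuclei against a class. HC-like nuclei against all other nuclei gave 1.90 to 2.61 for onecut2 with each library left out. Values that changed sign were at most 0.18 in size as reported. For onecut3a in RGC-like nuclei against all others they were -0.011 after log normalization, -0.069 in nuclei with at least 2000 UMIs and -0.015 with no filter, and -0.13 to 0.10 with each library left out. For onecut3a in RPC-like nuclei they were -0.017 with no doublet removal, -0.82 after log normalization, -1.25 with the members kept in the clustering, -0.15 in nuclei with at least 2000 UMIs, -0.19 in DESeq2, -0.060 with no filter, and -0.64 to 0.27 with each library left out. With each library left out onecut2 in RPC-like nuclei ranged over -0.68 to 0.23 and prox1a in MG-like nuclei over -0.017 to 0.30. The cause was not tested. The 318 HC-like and 48 OL-like nuclei limit the depth of their sums.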
